A study of Mus musculus with 6 samples.

Results

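The abundance of 8 mitochondrial carrier genes was followed across cultured brown adipocytes with and without functional uncoupling protein 1: the adenine nucleotide translocases Slc25a4, Slc25a5 and Slc25a31, and the uncoupling protein homologues Ucp2, Ucp3, Slc25a14, Slc25a27 and Slc25a30. These 8 genes were taken by name from 22466 genes with a RefSeq transcript. Where a gene had more than 1 RefSeq transcript, the one with the highest mean abundance was used. All 8 were present among the deposited values, and all 8 passed the minimum mean abundance of 0.5 RPKM (reads scaled by the length of the transcript and by the depth of the library).

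RNA was sequenced from 3 WT and 3 Ucp1-KO cultures. Both genotypes were of the strain labelled 129SvEvS1. Precursor cells came from interscapular brown adipose tissue of male mice aged 5 to 6 wk and were differentiated for 7 d, after 2 d of induction, in medium that contained rosiglitazone, insulin and T3 for both genotypes. Rosiglitazone activates the nuclear receptor PPARγ, so that no culture shows the genes without this agonist. The Ucp1-KO allele still gives rise to a shortened, non-functional Ucp1 transcript, and no source used here says whether the cultures came from separate animals. The p-values therefore measure the spread between these cultures only. The computed depth was 14989603 to 17727656 reads per culture.

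Adenine nucleotide translocases exchange ADP for ATP across the inner mitochondrial membrane and thereby couple ATP synthase to the cytosol. They also carry a fatty acid-dependent proton leak, which has made them a recurring candidate for uncoupling without UCP1. UCP1 dissipates the proton gradient as heat in brown adipocytes when activated by fatty acids. Its homologues belong to the same carrier family, but their transport function is less settled.

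Ucp1, the targeted gene, was measured first. Its abundance was 1775, 981 and 1157 RPKM in WT cultures 10, 11 and 12 and 307, 409 and 398 RPKM in Ucp1-KO cultures 13, 14 and 15. All Ucp1-KO cultures lay below all WT cultures, with a mean of 371 ± 56.1 RPKM against 1304 ± 417 RPKM (SD, n = 3 each), or 28.4% of WT. The log2 fold change was -1.78 ± 0.24 (SE, limma unadjusted p = 1.57e-04, adjusted p = 0.868), and the exact permutation p was 0.1, the smallest possible with 3 against 3 cultures. The reads of the shortened transcript in Ucp1-KO cultures were scaled by the full RefSeq length of 1644 bases. This understates its level relative to WT.

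The 3 translocases are close in sequence. Over the coding sequence, Slc25a4 and Slc25a5 were identical at 77.5% of aligned bases, Slc25a4 and Slc25a31 at 66.6%, and Slc25a5 and Slc25a31 at 66.5%. The longest identical run between Slc25a4 and Slc25a5 was 20 bases, which is shorter than the 50-base reads. A stretch of 60 coding bases of each gene is shown as an example. In this stretch Slc25a5 and Slc25a31 were both closer to Slc25a4 than over the coding sequence as a whole. It therefore understates how far the genes differ. Capitals mark bases that are not those of Slc25a4. The stretches lie at chr8:46210812-46210871 on the reverse strand, at chrX:36795782-36795841 on the forward strand and at chr3:40709082-40709141 on the forward strand of GRCm38.

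Slc25a4: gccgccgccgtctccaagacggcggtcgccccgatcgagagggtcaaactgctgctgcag
Slc25a5: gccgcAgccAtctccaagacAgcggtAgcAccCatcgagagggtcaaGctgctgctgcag
Slc25a31: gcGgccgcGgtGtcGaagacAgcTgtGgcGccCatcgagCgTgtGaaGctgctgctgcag

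Slc25a5 differed from Slc25a4 at 7 of these 60 positions and Slc25a31 at 13. None of the 50-base runs of Slc25a4, Slc25a31, Ucp3, Slc25a14, Slc25a27 or Slc25a30 occurred in another gene of the GENCODE M21 transcripts. Slc25a5 was the exception among the translocases. Of its 1191 runs of 50 bases, 555 (46.6%) also occurred in 9 other annotated genes, all of them processed pseudogenes. The copy with the most shared runs, 347, was Gm5560 at chr5:97264828-97265719. The longest run shared by both was 145 bases, and the following stretch of 62 bases belongs to it, at chrX:36797815-36797876 on the forward strand.

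Slc25a5 and Gm5560: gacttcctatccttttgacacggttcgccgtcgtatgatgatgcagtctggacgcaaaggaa

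Promoter sequences are shown for the translocases and for the neighbouring genes Ucp2 and Ucp3, whose levels differed widely, with the motifs found on either strand in capitals. Each covers 250 bases before to 50 bases after a RefSeq start on GRCm38. The motif TATAA occurred in 24.9% of 32851 RefSeq promoters of this length. The E-box CACGTG occurred in 7.15%, and the E2F-type motif GCGGGAAA in 1.07%. The motif CCAAT occurred in 37.4%. The cAMP response element TGACGTCA occurred in 1.79%, and the GC box GGGCGG in 35.7%. No motif overlapped another in the windows shown. The windows are chr8:46211013-46211312 (reverse strand) for Slc25a4, chrX:36795347-36795646 for Slc25a5, chr3:40708621-40708920 for Slc25a31, chr7:100493108-100493407 for Ucp2 and chr7:100472741-100473040 for Ucp3 (forward strand).

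Slc25a4: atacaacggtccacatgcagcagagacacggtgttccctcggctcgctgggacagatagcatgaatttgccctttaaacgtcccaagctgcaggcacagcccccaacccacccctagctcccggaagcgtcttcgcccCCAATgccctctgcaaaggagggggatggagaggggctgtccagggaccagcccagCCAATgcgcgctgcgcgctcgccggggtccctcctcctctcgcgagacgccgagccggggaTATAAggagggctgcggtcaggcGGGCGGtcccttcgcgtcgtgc
Slc25a5: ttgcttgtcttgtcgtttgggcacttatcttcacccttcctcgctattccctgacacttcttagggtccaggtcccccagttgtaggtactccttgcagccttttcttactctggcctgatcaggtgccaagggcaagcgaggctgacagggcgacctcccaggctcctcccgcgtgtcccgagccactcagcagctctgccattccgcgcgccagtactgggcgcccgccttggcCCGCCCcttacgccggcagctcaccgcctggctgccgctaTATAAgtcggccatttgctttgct
Slc25a31: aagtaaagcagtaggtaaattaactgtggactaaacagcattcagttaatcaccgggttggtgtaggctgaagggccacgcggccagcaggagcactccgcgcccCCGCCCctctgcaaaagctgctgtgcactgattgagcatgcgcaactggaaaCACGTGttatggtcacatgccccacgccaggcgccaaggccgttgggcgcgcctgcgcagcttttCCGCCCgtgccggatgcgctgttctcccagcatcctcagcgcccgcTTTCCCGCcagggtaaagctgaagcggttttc
Ucp2: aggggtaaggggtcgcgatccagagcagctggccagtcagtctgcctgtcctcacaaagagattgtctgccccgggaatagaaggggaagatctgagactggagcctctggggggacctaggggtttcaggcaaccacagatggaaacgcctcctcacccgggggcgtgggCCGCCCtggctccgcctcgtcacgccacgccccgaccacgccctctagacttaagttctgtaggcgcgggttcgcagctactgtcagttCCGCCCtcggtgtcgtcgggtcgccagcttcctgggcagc
Ucp3: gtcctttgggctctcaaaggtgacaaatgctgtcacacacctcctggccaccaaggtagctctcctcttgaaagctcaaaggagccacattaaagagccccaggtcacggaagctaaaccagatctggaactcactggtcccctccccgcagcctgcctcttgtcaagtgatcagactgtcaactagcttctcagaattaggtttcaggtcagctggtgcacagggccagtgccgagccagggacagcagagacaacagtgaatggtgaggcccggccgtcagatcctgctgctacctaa

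Slc25a4 and Slc25a5 each held 1 TATAA, beginning 5 and 26 bases after the RefSeq start, and Slc25a31 held none. The GENCODE transcript of Slc25a5 starts at chrX:36795651, after the end of its window. The Slc25a31 window held 1 CACGTG and 1 GCGGGAAA. The Ucp2 window held 2 GC boxes, 21 CG dinucleotides and 64.3% G and C, whereas the Ucp3 window held none of the 6 motifs, 5 CG dinucleotides and 55.0% G and C. The median RefSeq promoter had 7 CG dinucleotides. The window of Ucp1 held none of the 6 motifs, 15 CG dinucleotides and 64.7% G and C. That of Slc25a30, with a mean of only 3.50 RPKM, held a GC box, 25 CG dinucleotides and 66.7% G and C. A match describes the letters of the window and was not linked to any measured binding.

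The 8 genes differed far more from each other than between genotypes. Slc25a4, the translocase typical of heart and muscle, had the highest level per RefSeq length and held rank 118 of 28890 RefSeq transcripts. Slc25a5, the translocase of most proliferating tissues, held rank 304 and Ucp2 rank 455. Ucp3 followed at rank 8530, Slc25a30 at 11821, Slc25a31 at 13826, Slc25a14 at 14916 and Slc25a27 at 16692. Over the 6 cultures, the ranges of neighbours in this order did not overlap down to Slc25a30. Slc25a30 and Slc25a31, Slc25a31 and Slc25a14, and Slc25a14 and Slc25a27 overlapped as neighbours. Slc25a30 lay above Slc25a14 and Slc25a27 in all 6 cultures without overlap of their ranges, and Slc25a14 exceeded Slc25a27 in each culture. The order of the 3 most abundant genes held for RefSeq lengths and all positions of Slc25a5. On a shorter Ucp2 transcript, Ucp2 reached 285 to 426 RPKM, above the deposited range of Slc25a5, and its ratio to Slc25a4 ranged from 0.615 to 1.14. Over the positions of Slc25a5 that no other gene shares, the ratio of Slc25a4 to Slc25a5 ranged from 0.859 to 1.31.

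**Figure D1:**
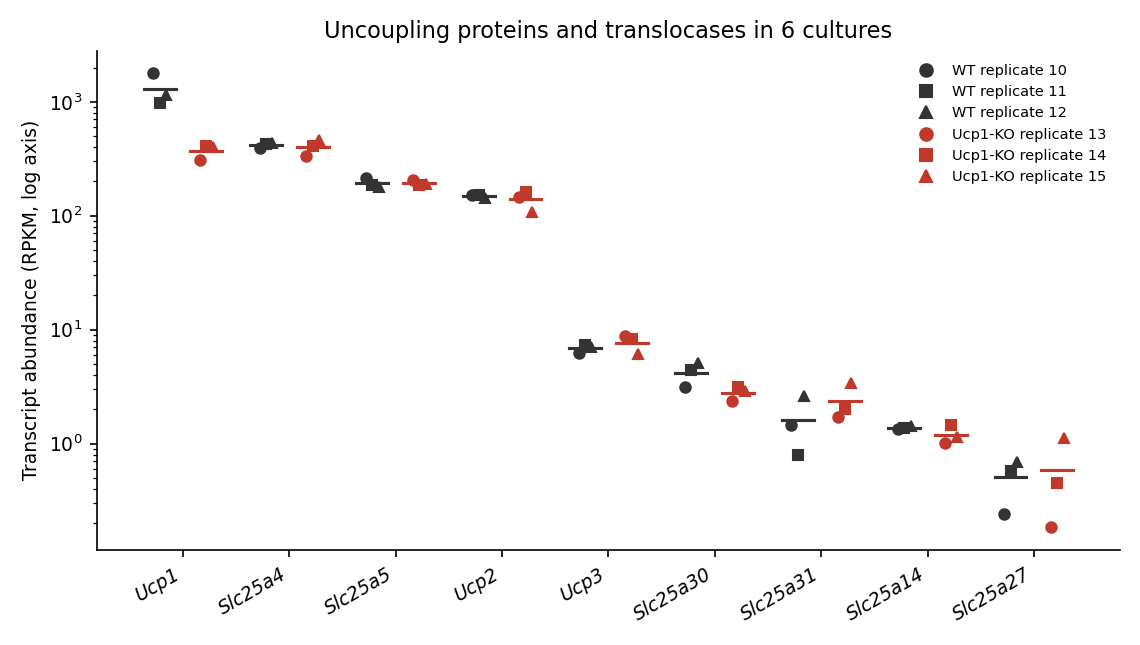
Transcript abundance (RPKM, log axis) of Ucp1 and the 8 carriers in each culture. Points are cultures and lines are the means of 3 WT (dark) or 3 Ucp1-KO (red) cultures. Ucp1 separates by genotype (981 to 1775 against 307 to 409 RPKM), and the points of the 8 carriers overlap.

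Slc25a4 was measured at 396, 423 and 437 RPKM in WT cultures 10, 11 and 12 and at 331, 411 and 463 RPKM in Ucp1-KO cultures 13, 14 and 15. Both the lowest and the highest culture were Ucp1-KO. The means were 419 ± 21.0 and 402 ± 66.5 RPKM (SD, n = 3 each), with a log2 fold change of -0.07 ± 0.14 (SE, limma adjusted p = 0.949). Slc25a4 lies at chr8:46206797-46211284 on the reverse strand and has 4 exons.

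Slc25a5 was measured at 214, 185 and 180 RPKM in WT and at 206, 187 and 189 in Ucp1-KO cultures. The genotypes overlapped nearly completely. The means were 193 ± 18.1 and 194 ± 10 RPKM (SD, n = 3 each), with a log2 fold change of 0.01 ± 0.10 (SE, limma adjusted p = 0.993). Slc25a5 lies at chrX:36795651-36798807 on the forward strand and has 4 exons.

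The level of Slc25a5 depended on how its copies were handled. Its most similar copy, Gm5560, had a row of its own with 499 to 733 reads per culture, which was 13% to 16.2% of the reads of Slc25a5. A second copy, Gm5529, was listed under the symbol Slc25a5 with 17 to 33 reads. The other copies with a row had at most 5 reads in any culture. Adding the reads of all listed copies raised Slc25a5 to between 209 and 250 RPKM. The authors assigned uniquely identified reads, and if the 46.6% of shared positions gave no such reads, the level over the remaining positions would be 362 ± 33.8 RPKM in WT and 364 ± 18.8 in Ucp1-KO cultures (SD, n = 3 each). Which of these applies was not tested.

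As deposited, Slc25a4 was 2.19 ± 0.299 times as abundant as Slc25a5 in WT and 2.08 ± 0.428 times in Ucp1-KO cultures (SD, n = 3 each). Over the unshared positions of Slc25a5 the ratio was 1.17 ± 0.159 and 1.11 ± 0.229, with values from 0.859 to 1.31. The genotypes overlapped under both. Each of these ratios used the RefSeq length of Slc25a4, 1108 bases, with 45380 reads over all cultures. Its Ensembl transcript of 1925 bases held 48513 reads, at a mean of 253 RPKM instead of 410 RPKM. That mean lay above the 194 RPKM deposited for Slc25a5. It lay below the 363 RPKM over the unshared positions of Slc25a5 and the 374 RPKM of the shorter Ucp2 transcript.

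Slc25a31, a translocase known from the male germ line, was low. It was measured at 1.44, 0.795 and 2.59 RPKM in WT and at 1.70, 2.01 and 3.38 in Ucp1-KO cultures, from 28 to 107 reads. The highest culture exceeded the lowest 4.25-fold, and the genotypes overlapped. The log2 fold change on the log2(RPKM + 1) scale, which understates changes of low genes, was 0.39 ± 0.29 (SE, limma adjusted p = 0.878). Slc25a31 lies at chr3:40708855-40726096. Among 5 germ cell markers, the summed abundance was 25.1 to 25.5 RPKM in WT and 27.2 to 35.7 RPKM in Ucp1-KO cultures, nearly all of it Sycp3, with Tex101 and Prm1 listed at 0. The part of such cells in the level of Slc25a31 was not tested.

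The 3 translocases together summed to 614 ± 5.85 RPKM in WT and 598 ± 58.7 in Ucp1-KO cultures (SD, n = 3 each). The sum was 0.501 ± 0.142 times that of Ucp1 in WT and 1.62 ± 0.145 times in Ucp1-KO cultures. This ratio moved with Ucp1 itself, including its remnant transcript, which was scaled by the full Ucp1 length.

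Ucp2, a broadly expressed homologue that is abundant in immune cells, was the most abundant homologue. It was measured at 151, 151 and 142 RPKM in WT and at 146, 163 and 109 in Ucp1-KO cultures. The highest and the lowest culture were both Ucp1-KO. The means were 148 ± 5.22 and 139 ± 27.8 RPKM (SD, n = 3 each), with a log2 fold change of -0.11 ± 0.15 (SE, limma adjusted p = 0.929). Without Ucp1-KO culture 15 the log2 fold change was 0.06.

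Markers of macrophages and leukocytes varied in the same cultures. The summed abundance of 12 such markers was 92.9, 303 and 170 RPKM in WT and 239, 1216 and 51.8 RPKM in Ucp1-KO cultures. Culture 14 had the highest and culture 15 the lowest sum, as for Ucp2, whereas WT cultures 10 and 11 had sums of 92.9 and 303 RPKM at the same Ucp2 level of 151 RPKM. The part of such cells in the Ucp2 level was not tested, and in a culture more cells of a type cannot be told apart from more RNA per cell.

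The RefSeq transcript of Ucp2 spans 4133 bases, and this length set its level. A shorter Ucp2 cDNA of 1572 bases, 38% of that length, held 98.2% to 99.6% of the same reads. Only 24 to 177 reads per culture lay outside it. Per kilobase of the shorter form, Ucp2 reached 386 ± 13 RPKM in WT and 362 ± 71.7 in Ucp1-KO cultures (SD, n = 3 each). This was 0.924 ± 0.0706 and 0.929 ± 0.277 times the level of Slc25a4, against 0.354 ± 0.0284 and 0.357 ± 0.108 times with the RefSeq length. The annotated end of Ucp2 overlaps Dnajb13 on the opposite strand, which shares 256 of its 3939 runs of 50 bases, and without strand information reads there cannot be told apart. The Ensembl transcripts of Dnajb13 held 7 to 16 reads per culture, against 6728 to 11616 reads of Ucp2.

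**Figure D2:**
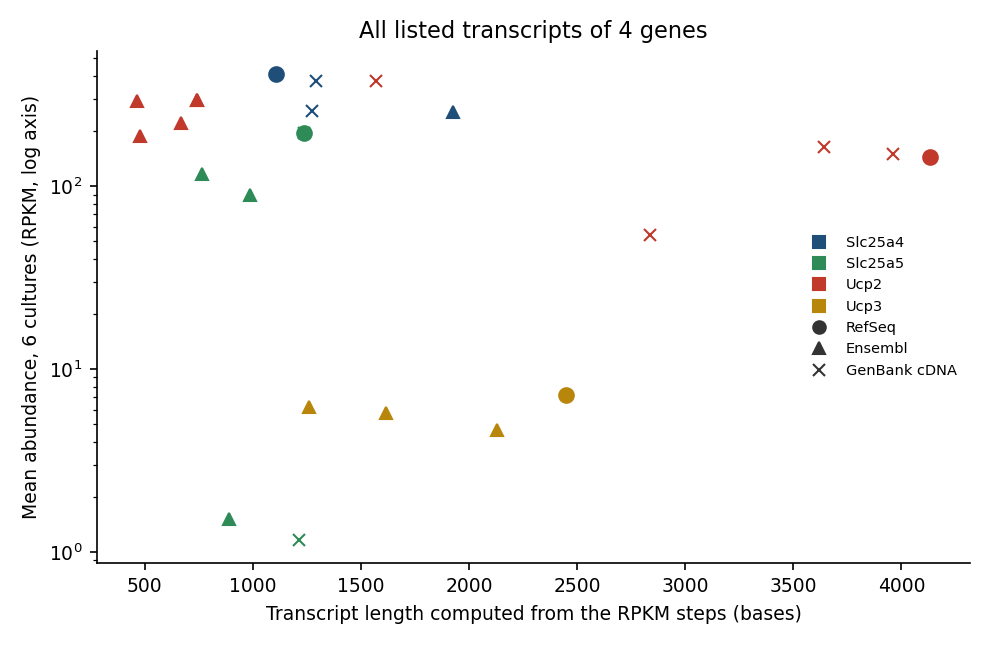
Mean abundance over 6 cultures (RPKM, log axis) of every listed transcript of Slc25a4, Slc25a5, Ucp2 and Ucp3 against its length (bases) computed from the RPKM steps. Symbols give the annotation source. Ucp2 is 374 RPKM on its 1572-base transcript, and the low green triangle at 1.52 RPKM is the pseudogene Gm5529, listed under Slc25a5.

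Ucp3, the homologue typical of skeletal muscle and brown fat, lies upstream of Ucp2 on the same strand of chromosome 7. Only 6905 bases separate both genes, and their coding sequences were identical at 75.5% of aligned bases. Ucp3 was measured at 6.20, 7.29 and 7.07 RPKM in WT and at 8.73, 8.22 and 6.05 in Ucp1-KO cultures. Cultures 13 and 14 lay above all WT cultures and culture 15 below them. The means were 6.86 ± 0.580 and 7.67 ± 1.42 RPKM (SD, n = 3 each), with a log2 fold change of 0.13 ± 0.15 (SE, limma adjusted p = 0.909). Summed skeletal muscle markers were 9.25, 4.19 and 4.18 RPKM in WT and 20.3, 3.53 and 14.5 in Ucp1-KO cultures. Culture 13 was highest for both, culture 14 had the lowest marker sum with the second highest Ucp3, and culture 15 had the second highest marker sum with the lowest Ucp3. The part of such cells in the level of Ucp3 was not tested.

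Ucp2 was 21.7 ± 2.32 times as abundant as Ucp3 in WT and 18.2 ± 1.57 times in Ucp1-KO cultures (SD, n = 3 each). The single ratios were 24.4, 20.7 and 20.1 in WT and 16.7, 19.8 and 18.0 in Ucp1-KO cultures. The genotypes did not overlap, as for 11.2% of all single transcripts, although WT culture 12 and Ucp1-KO culture 14 were close. The share without overlap among ratios was not computed, and no test of this ratio was made. With the shorter Ucp2 transcript the single ratios ranged from 43.1 to 63.2.

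Relative to Ucp1, Ucp2 reached 12.1% ± 3.45 in WT and 38.2% ± 10.2 in Ucp1-KO cultures (SD, n = 3 each). Ucp3 reached 0.568% ± 0.201 and 2.13% ± 0.670. Both shares followed the lower abundance of Ucp1, scaled by its full length in both genotypes, while Ucp2 and Ucp3 themselves overlapped between genotypes.

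Slc25a30, also known as KMCP1, was the only one of the 8 genes with an unadjusted p under 0.05, which 5.54% of all 16865 transcripts had. It was measured at 3.12, 4.43 and 5.06 RPKM in WT and at 2.36, 3.13 and 2.89 in Ucp1-KO cultures, from 65 to 153 reads. WT culture 10 and Ucp1-KO culture 14 were nearly equal, and only they made the genotypes overlap. The means were 4.20 ± 0.986 and 2.79 ± 0.394 RPKM (SD, n = 3 each), 66.5% of WT. The log2 fold change was -0.44 ± 0.17 (SE, limma unadjusted p = 0.0354, adjusted p = 0.868), and the exact permutation p was 0.2. All 4 listed transcripts of the gene were lower in Ucp1-KO cultures, by log2 ratios of -0.66 to -0.57, but they count largely the same reads. The unadjusted p was above 0.05 in 6 of 14 alternatives, among them limma-voom on computed reads (0.0525) and leaving out WT culture 12 (0.124). Of the stromal and preadipocyte markers, 7 were tested and all 7 had a fitted log2 fold change below 0, as had 50.4% of all transcripts, with a median of -0.44. By group means Ly6a was at 107% of WT, and Dlk1, which was too low to be tested, at 189%. Dcn was at 54.3% of WT (limma unadjusted p = 0.00513, adjusted p = 0.868) and Pdgfra at 79.0%, both without overlap of the genotypes, as for 11.2% of all transcripts. The part of such cells in the level of Slc25a30 was not tested.

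Slc25a14 (BMCP1) and Slc25a27 (UCP4) are known as carriers of the nervous system. Slc25a14 was measured at 1.35, 1.38 and 1.41 RPKM in WT and at 1.02, 1.45 and 1.14 in Ucp1-KO cultures, from 25 to 38 reads. WT cultures were close together and lay within the range of Ucp1-KO cultures. The log2 fold change was -0.12 ± 0.12 (SE, limma adjusted p = 0.904). Slc25a27 was measured at 0.240, 0.580 and 0.693 RPKM in WT and at 0.184, 0.453 and 1.12 in Ucp1-KO cultures, from only 8 to 45 reads. The highest culture exceeded the lowest 6.06-fold, and the genotypes overlapped (log2 fold change 0.05 ± 0.24, SE, limma adjusted p = 0.982). The exact Poisson intervals of cultures 13 (0.0796 to 0.363 RPKM) and 15 (0.815 to 1.49 RPKM), which cover counting error only, did not overlap. Summed neuron markers, mostly Tubb3, were 1.74 to 4.27 RPKM in WT and 0.401 to 2.80 RPKM in Ucp1-KO cultures.

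None of the 8 genes passed an adjusted p of 0.05 (limma), and this was 0% of all 16865 transcripts tested. At an unadjusted p under 0.05 it was 1 of 8, against 5.54% of all transcripts. None of the 8 had all cultures of 1 genotype above all of the other, against 11.2% of all transcripts. The log2 fold changes ranged from -0.44 to 0.39, 4 above and 4 below 0, with a median of -0.03. Together the 8 genes summed to 775 ± 1.74 RPKM in WT and 750 ± 46.0 in Ucp1-KO cultures (SD, n = 3 each). With RefSeq lengths, Slc25a4 made up 54.1% ± 2.61 and 53.4% ± 6.09 of this sum.

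**Figure D3:**
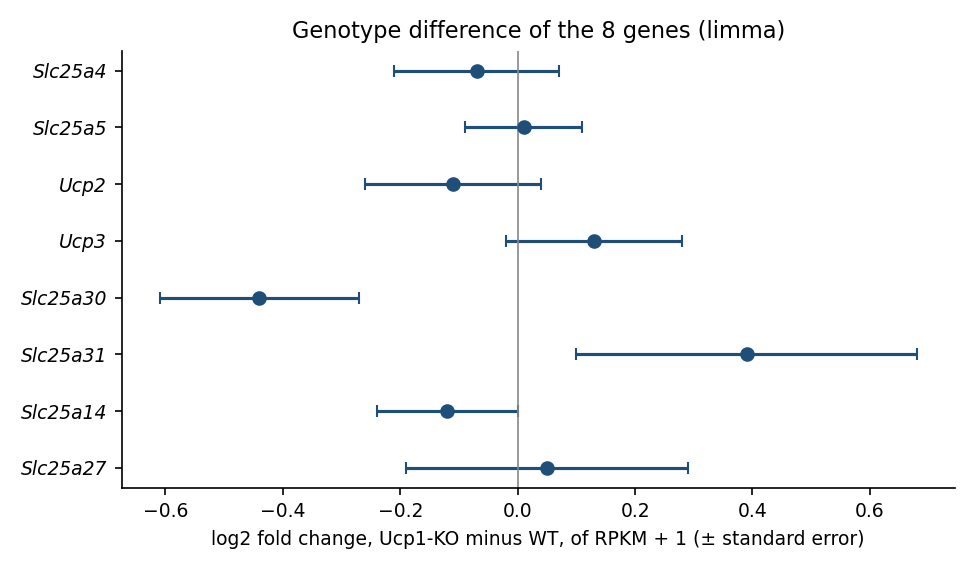
Log2 fold change (Ucp1-KO minus WT, of RPKM + 1) of the 8 carriers with the limma standard error, n = 3 cultures per genotype. The estimates lie between -0.44 (Slc25a30) and 0.39 (Slc25a31).

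**Figure D4:**
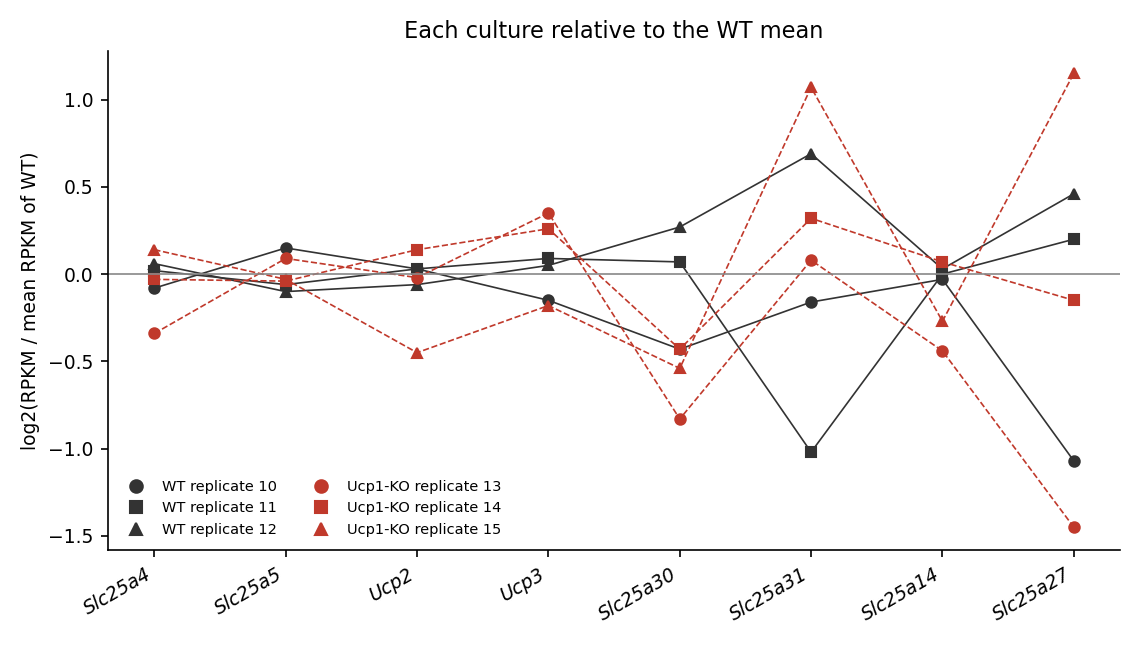
Log2 abundance of each culture relative to the mean of WT for the 8 carriers, ordered by abundance, with solid lines for WT and dashed lines for Ucp1-KO cultures. The highest culture exceeds the lowest 6.06-fold for Slc25a27 and 4.25-fold for Slc25a31, and 1.42-fold for Slc25a14.

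Genes that exchange or use ATP, ADP and phosphate were compared as partners of the translocases. Of 22 genes 19 were tested, 0 passed the adjusted p, 1 was higher and 1 lower at an unadjusted p under 0.05, and the median log2 fold change was -0.02. Slc25a42, which carries coenzyme A and ADP, was 29.5 ± 5.05 RPKM in WT and 50.5 ± 11.6 in Ucp1-KO cultures (log2 fold change 0.74 ± 0.20, limma unadjusted p = 0.00746, adjusted p = 0.868). Ckb, the creatine kinase proposed for futile creatine cycling, was 10.4 ± 2.18 and 7.50 ± 0.972 RPKM (log2 fold change -0.41 ± 0.16, limma unadjusted p = 0.0381, adjusted p = 0.868; SD, n = 3 each). The genotypes did not overlap for either gene. The unadjusted p of Ckb was above 0.05 in 6 of 14 alternatives, and without WT culture 11 its log2 fold change was -0.27 (unadjusted p = 0.115, limma). Both counts, 2 of 19, stand beside 5.54% of all transcripts at an unadjusted p under 0.05 and 11.2% without overlap. The ATP synthase subunits Atp5b (2082 ± 68.1 and 2027 ± 145 RPKM) and Atp5a1 (1011 ± 115 and 990 ± 10.1 RPKM) overlapped between genotypes.

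Ucp2 and Ucp3 are known to respond to fatty acids through PPARs. Of 20 PPAR targets and regulators 19 were tested, 0 passed the adjusted p and 1 was higher at an unadjusted p under 0.05, with a median log2 fold change of 0.07. This gene was Fabp3, a fatty acid-binding protein, with 9.98 ± 3.74 RPKM in WT and 20 ± 2.65 in Ucp1-KO cultures (SD, n = 3 each; log2 fold change 0.99 ± 0.27, limma unadjusted p = 0.00846, adjusted p = 0.868). Its genotypes did not overlap. This 1 gene of 19 stands beside the same 5.54% and 11.2% of all transcripts. Pparg itself was 122 ± 4.62 and 135 ± 8.46 RPKM (log2 fold change 0.14 ± 0.09, limma adjusted p = 0.876).

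A list of 6 further carriers was chosen by name as close to the uncoupling proteins, and their sequences were not compared here. Of these 6 carriers 5 were tested, 0 passed the adjusted p and 1 was higher at an unadjusted p under 0.05. Slc25a35 was 19.2 ± 1.61 RPKM in WT and 24.3 ± 1.11 in Ucp1-KO cultures without overlap (SD, n = 3 each; log2 fold change 0.33 ± 0.09, limma unadjusted p = 0.0107, adjusted p = 0.868). The 1 gene of 5 stands beside 5.54% and 11.2% of all transcripts. The most abundant, the citrate carrier Slc25a1, was 229 ± 20.2 and 209 ± 15.7 RPKM (limma adjusted p = 0.889). Summed adipocyte markers were 29294 to 31373 RPKM in WT and 30660 to 32510 RPKM in Ucp1-KO cultures, and brown adipocyte markers 1880 to 2089 and 1904 to 2816 RPKM. Stromal and preadipocyte markers were 717 to 1672 and 616 to 977 RPKM, and endothelial markers 2.76 to 33.2 and 5.55 to 15.6 RPKM.

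**Figure D5:**
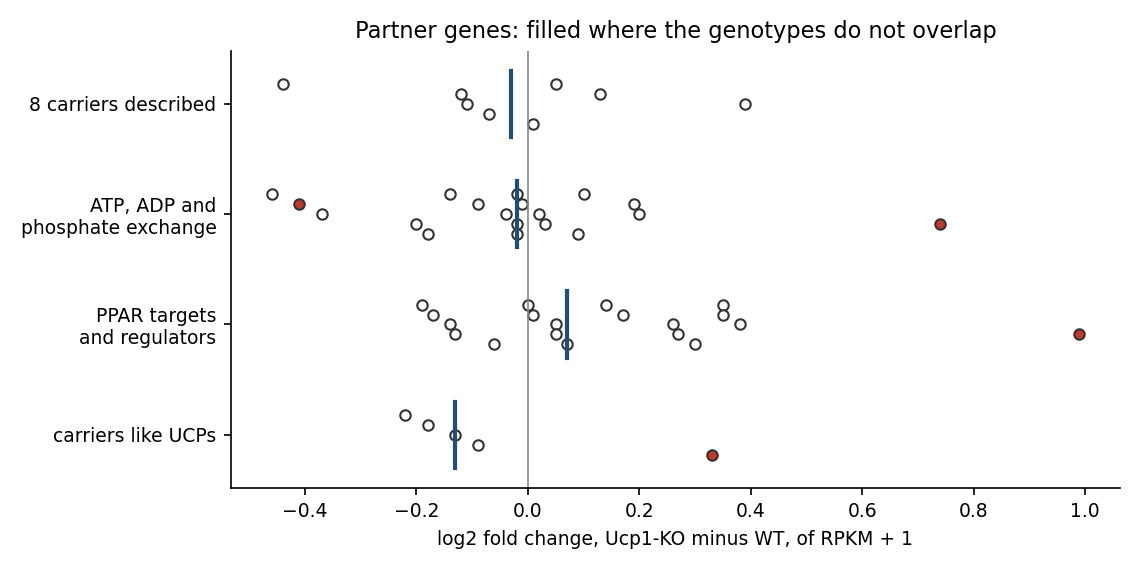
Log2 fold change (Ucp1-KO minus WT, of RPKM + 1) of the 8 carriers and 3 groups of partner genes, 1 point per gene, filled where the genotypes do not overlap, with the group median as a bar. Filled points are Ckb (-0.41), Slc25a42 (0.74), Fabp3 (0.99) and Slc25a35 (0.33).

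The genes whose profiles over the 6 cultures were most like those of the 4 carriers with a mean of at least 5 RPKM were found among 7515 genes by Pearson's r, as a description of 6 points that share library and depth. They were 4930452B06Rik (0.999), Zbtb18 (0.991) and Mrm1 (0.991) for Slc25a4, and Qdpr (0.996), Smpd5 (0.994) and Pcyt2 (0.986) for Slc25a5. For Ucp2 they were Pitpna (0.988), AI464131 (0.977) and Cap1 (0.975), and for Ucp3 Mlec (0.988), Tubgcp2 (0.986) and Tbc1d2b (0.977).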

How the data were processed

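RNA was measured in 3 WT and 3 Ucp1-KO cultures. Single reads of 50 bases were aligned to build 38 of the mouse genome. With Genomatix software the authors kept uniquely placed reads, counted them per annotated transcript and deposited RPKM values. The labels name CASAVA and bcl2fastq. Column names gave the culture of all 6 value columns. Of 168326 deposited rows, the 28890 from RefSeq were used.

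Read numbers were computed from the steps of the RPKM values. Between 94.2% and 94.5% of low values were whole reads (tolerance 0.02 reads), and 16862 of 16865 tested transcripts gave whole reads in all cultures (tolerance 0.05). A count of 3 reads on 2000 bases corresponded to 0.0846 to 0.100 RPKM. Transcripts whose mean reached 0.5 RPKM were tested as log2(RPKM + 1) with limma 3.58.1 in R 4.3.3 (empirical Bayes with trend, Benjamini-Hochberg adjustment) and single members by a two-sided exact permutation test. Scripts were tested on simulated data.

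Members, partner lists and markers were chosen with earlier results of these data known. Named partner genes were those with an unadjusted p under 0.05 or without overlap, and otherwise the most abundant. Pparg was named after its values were seen. Promoters came from RefSeq (GRCm38.p6) for 7 of 8 members, and transcripts from GENCODE M21 (GRCm38). Pseudogene copies were matched by transcript identifier. Coding sequences were aligned with Biopython 1.88. Alternatives changed the added constant, minimum, annotation, scaling, model and cultures.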

Additional observations from a re-analysis of the deposited data

How the results depend on the processing

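No paired analysis was possible because the genotypes share no replicate number. None of the 8 carriers passed an adjusted p of 0.05 under any of 14 alternatives (smallest adjusted p = 0.393, limma), and neither did any partner gene. Over all transcripts 0 passed, except 22 without a minimum abundance. The number at an unadjusted p under 0.05, 935 as reported, was 1456 without a minimum and 5193 with all annotation rows. With 1 culture left out it ranged from 317 (without WT culture 11) to 1754 (without WT culture 10), with 441 without WT culture 12, 1542 without Ucp1-KO culture 13 and 602 without Ucp1-KO culture 14.

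Of 111 member fold changes under the alternatives, 103 kept their direction and 8 reversed. Slc25a27 was -0.03 with limma-voom on computed reads and -0.18 to 0.23 with 1 culture left out. On leaving out 1 culture, Slc25a4 ranged from -0.18 to 0.06, Slc25a5 from -0.04 to 0.08 and Ucp2 from -0.23 to 0.06. Slc25a31 (0.39 as reported) ranged from 0.15 without WT culture 11 to 0.65 without WT culture 12, where its unadjusted p was 0.0489, and was 0.62 with limma-voom and 0.61 with 0.1 RPKM added. Ucp3 (0.13) ranged from 0.04 without Ucp1-KO culture 13 to 0.27 without Ucp1-KO culture 15, and Slc25a14 (-0.12) from -0.19 without Ucp1-KO culture 14 to -0.05 without Ucp1-KO culture 13, and was -0.20 with limma-voom and with 0.1 RPKM added. Slc25a30 ranged from -0.60 to -0.32, and its unadjusted p, 0.0354 as reported, from 0.00557 without WT culture 10 to 0.124 without WT culture 12. Slc25a27 was not tested at a minimum of 1 RPKM.

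Alternatives added after seeing the data changed levels between genes. With the most abundant transcript of any annotation, the ratio of Ucp2 to Slc25a4 was 0.926 instead of 0.356, that of Ucp2 to Ucp3 52.0 instead of 19.9, and the share of Slc25a4 in the 8 genes 41.3% instead of 53.7%. Over the unshared positions of Slc25a5 the ratio of Slc25a4 to Slc25a5 was 1.14 instead of 2.13 and the share of Slc25a4 was 44.0%. With the reads of the listed copies added, that ratio was 1.85. With 3 cultures per genotype no exact test of a single gene could fall below 0.1.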
